A study of Mus musculus with 11 samples.

Results

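Irx3 and Irx5 are 2 of the 13720 genes in the deposited table of hindlimb (HL) bud transcript levels, and they were taken by name. Both passed the filter on low values, so both are among the 12996 genes tested. RNA came from HL buds of E10 mouse embryos, and each library held both HLs of 1 embryo. The series compared 6 M1KO;M2KO embryos, called KO below, with 5 WT embryos, to ask which transcripts differ in HL buds that lack the TALE homeodomain factors Meis1 and Meis2.

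The 3 KO embryos of the Ovation library set were labelled M1koM2ko, were male and came from litters 1, 3 and 4. The 3 KO embryos of the NEBNext set were labelled HoxB6CreER;Meis1Ko;Meis2KO. The 2 Ovation WT embryos were female and from litter 1. WT S_252 was labelled M1wtM2wt, and WT S_254 carried 1 mutant Meis1 allele (M1hetM2wt), although its title and phenotype label read WT. The 3 NEBNext WT embryos had no further genotype in the labels. All embryos were at 30 to 33 somites, and libraries are named by group and title number. In the study's methods the Meis2 allele is conditional, Meis1 is either conditional or deleted throughout, and the conditional alleles were recombined by HoxB6CreER after injection of 4-hydroxy-tamoxifen. This driver is active in lateral plate mesoderm behind the forelimb, so surface ectoderm and somite-derived cells in the same bud need not be recombined. In the Ovation set sex coincided with genotype, and their effects cannot be told apart there.

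Irx3 and Irx5 encode homeodomain transcription factors of the Iroquois family, which belongs to the TALE class together with the Meis and Pbx factors. The mouse genes lie in the IrxB cluster with Irx6, and Irx1, Irx2 and Irx4 form the IrxA cluster. In the early mouse limb bud Irx3 and Irx5 are expressed proximally and anteriorly. Embryos without both genes lose anterior and proximal HL skeleton, and Hedgehog signalling is known to restrain both genes.

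Irx3 (ENSMUSG00000031734) spans 91798525 to 91802067 on the minus strand of chromosome 8 in the GRCm38 build, and Irx5 (ENSMUSG00000031737) spans 92357625 to 92376286 on the plus strand. Their start sites lie 556 kb apart. The transcripts are most alike over the coding sequence of the homeodomain's DNA-recognition helix, which is shown because a read from there is the one most easily given to the wrong gene. The best matching stretch of 75 bases, the read length of the Ovation set, held 73 identical bases. The lines give it 5′ to 3′ on the coding strand from the GENCODE M21 transcripts, with the 2 differing bases in capitals.
Irx3-201, chr8:91800496-91800570, minus strand: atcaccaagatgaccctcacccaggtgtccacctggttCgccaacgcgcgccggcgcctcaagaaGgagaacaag
Irx5-201, chr8:92359741-92359815, plus strand: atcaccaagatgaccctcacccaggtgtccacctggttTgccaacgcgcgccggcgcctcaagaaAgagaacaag

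The longest run without a mismatch between Irx3 and Irx5 was 50 bases, and 0 of the 2762 distinct 75-base stretches of Irx3 transcripts occurred in Irx5 transcripts. A read that spans a whole stretch could therefore be told apart between the members. Irx3 shared a run of 88 bases with Irx6, which covers the same helix and holds 14 stretches of 75 bases that are identical in both genes. The run lies at chr8:91800491-91800578 in Irx3 and at chr8:92677342-92677429 in Irx6, and it is shown because reads inside it cannot be given to Irx3 from their sequence alone.
Irx3 and Irx6 shared run: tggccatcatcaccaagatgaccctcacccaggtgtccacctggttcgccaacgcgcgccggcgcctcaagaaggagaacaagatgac
Irx6 was not analysed here, since it was not among the 13720 genes of the table. The longest run that Irx5 shared with Irx2 was 65 bases, below the read length of the Ovation set. Reads were trimmed in the study's methods, and a read shorter than a shared run could match both genes.

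Irx3 was somewhat higher on average in KO than in WT HL buds, and the difference did not pass the test. Levels are in CPM, CPM being read counts rescaled to a common library size, after the authors' scaling and batch correction. Irx3 was at 18.8, 11.5 and 17.8 CPM in KO S_258, S_280 and S_284 and at 20.5, 27.7 and 11.8 CPM in KO 2, 3 and 4, against 15.4 and 13.9 CPM in WT S_252 and S_254 and 12.05, 14.2 and 15.4 CPM in WT 1, 3 and 4. 4 of the 6 KO libraries lay above all 5 WT libraries, and KO S_280 and KO 4 lay below all of them, so the groups overlapped. The means were 18.0 ± 6.01 CPM in KO (SD, n = 6) and 14.2 ± 1.38 CPM in WT (SD, n = 5). In the limma fit across 12996 genes the log2 fold change (FC) of KO over WT was 0.28 with a standard error of 0.20, a 95% confidence interval of -0.14 to 0.71 and a Benjamini-Hochberg adjusted p of 0.571. In an exact permutation test, two-sided and with genotypes exchanged within library sets, p was 0.27 over 200 arrangements, where 0.005 is the smallest p possible.

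Irx5 behaved in the same manner, with a larger difference and a larger error. It was at 14.6, 6.77 and 16.8 CPM in KO S_258, S_280 and S_284 and at 15.4, 22.4 and 10.3 CPM in KO 2, 3 and 4, against 13.2 and 9.12 CPM in WT S_252 and S_254 and 6.04, 10.03 and 11.7 CPM in WT 1, 3 and 4. The same 4 KO libraries lay above all WT libraries, while KO 4 and KO S_280 lay within the WT range. Irx5 averaged 14.4 ± 5.40 CPM in KO (SD, n = 6) and 10.01 ± 2.71 CPM in WT (SD, n = 5). Its log2 FC was 0.46 with a standard error of 0.27, a 95% confidence interval of -0.12 to 1.05 and a limma adjusted p of 0.469. The exact permutation test gave p = 0.195. Neither member was among the 272 genes that passed the adjusted threshold of 0.05, which were 2.09% of the genes tested. In bulk HL buds, a difference in the number of cells that express a gene and a difference in its RNA per cell cannot be told apart.

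**Figure D1:**
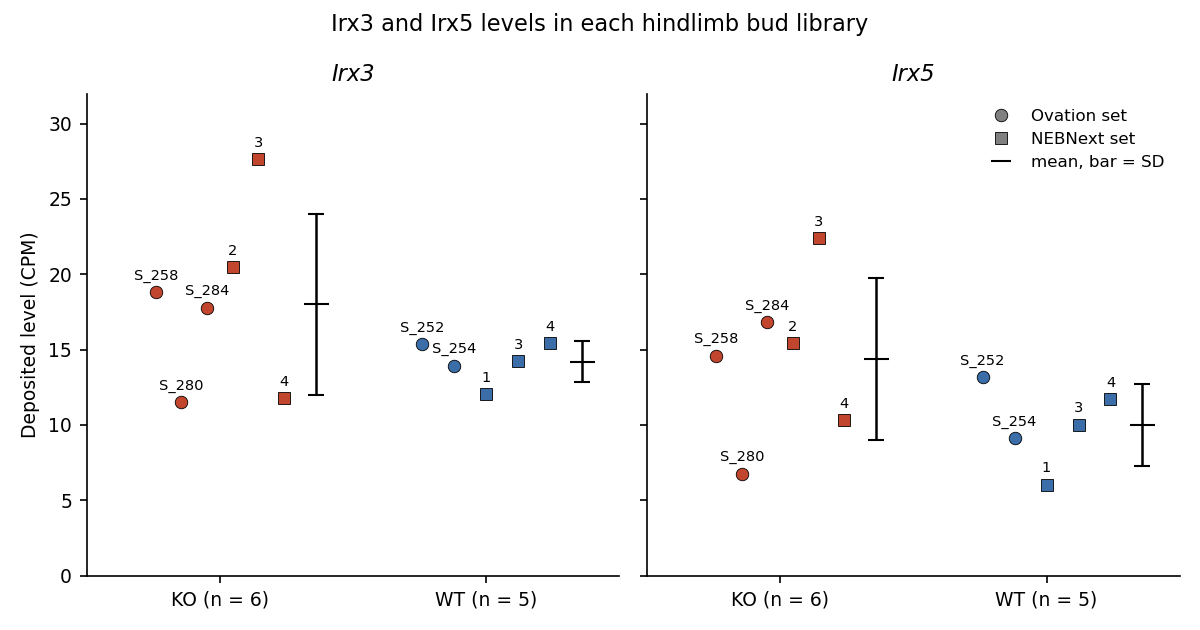
Levels of Irx3 (left) and Irx5 (right) in CPM on a linear axis from 0, with KO libraries (red) left of WT libraries (blue), circles for the Ovation set, squares for the NEBNext set, and the mean and SD of each group as a black bar. In both panels KO 3 is the highest library, at 27.7 CPM for Irx3 and 22.4 CPM for Irx5, and the KO points spread over and beyond the WT range.

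A single KO library contributed much of each difference. Without KO 3 the log2 FC was 0.13 for Irx3 (limma adjusted p = 0.832) and 0.29 for Irx5 (adjusted p = 0.708). Without KO S_280, the lowest KO library for both genes, it was 0.38 for Irx3 (adjusted p = 0.381) and 0.64 for Irx5 (adjusted p = 0.186). Leaving out each of the 11 libraries in turn gave 0.13 to 0.43 for Irx3 and 0.29 to 0.64 for Irx5, with adjusted p of 0.272 or more and 0.186 or more. Every value was above 0 and none passed the threshold.

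Both genes were set beside all genes tested for spread and for change. After genotype and library set were fitted, the residual SD on the log2 scale was 0.38 for Irx3 and 0.54 for Irx5, larger than that of 78.9% and 90.8% of genes tested. Their absolute log2 FC was larger than that of 79.4% and 90.9% of genes, ranks much like those of the residual SD. The mean WT level was above that of 42.3% of genes for Irx3 and 35.1% for Irx5, which places both near the middle of the genes tested.

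The library sets were also compared, because their library preparation differed. Litter and sex are labelled for the Ovation set only. Irx3 was highest in the NEBNext KO libraries (19.96 ± 7.95 CPM), followed by the Ovation KO libraries (16.03 ± 3.94 CPM), the Ovation WT libraries (14.6 ± 1.017 CPM) and the NEBNext WT libraries (13.9 ± 1.72 CPM), with n = 3 in each apart from n = 2 for Ovation WT. Irx5 had the same order, with 16.04 ± 6.07, 12.7 ± 5.28, 11.1 ± 2.86 and 9.26 ± 2.91 CPM. Each neighbouring pair in these orders differed by less than the larger of its 2 SDs. The log2 FC of Irx3 was 0.10 in the Ovation set (limma adjusted p = 0.882) and 0.43 in the NEBNext set (adjusted p = 0.535). The log2 FC of Irx5 was 0.11 in the Ovation set (adjusted p = 0.908) and 0.74 in the NEBNext set (adjusted p = 0.370). The difference between the sets, Ovation minus NEBNext, was -0.33 for Irx3 (interaction adjusted p = 0.786) and -0.63 for Irx5 (adjusted p = 0.668), and this interaction passed for 0 of 12996 genes. Within a single set 1.15% of genes passed in Ovation and 0.0231% in NEBNext, and neither member did. Within the Ovation set the small differences of both genes turned below 0 when single libraries were left out, to -0.03 for Irx3 and -0.03 for Irx5 without KO S_258, and to -0.13 and -0.14 for Irx5 without KO S_284 and without WT S_254.

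The proportion between the members was then examined. Irx5 was at 77.6%, 58.8% and 94.6% of the Irx3 CPM in KO S_258, S_280 and S_284 and at 75.4%, 81.0% and 87.6% in KO 2, 3 and 4, against 85.6% and 65.5% in WT S_252 and S_254 and 50.2%, 70.5% and 75.9% in WT 1, 3 and 4. The groups overlapped, with the lowest share in WT 1 and the highest in KO S_284. The log2 ratio of Irx5 to Irx3 was 0.18 higher in KO than in WT by the exact permutation test within sets (p = 0.29). It differed by 0.01 in the Ovation set (exact p = 1) and 0.31 in the NEBNext set (exact p = 0.2), where 0.1 is the smallest p either set allows. No change of the proportion was detectable in these libraries.

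To compare levels between genes, CPM were divided by the length of the gene's exons in kb. On this scale Irx3 had 4.17 to 10.01 CPM per kb in KO (median 6.62) and 4.36 to 5.59 in WT (median 5.15). Irx5 had 2.17 to 7.16 CPM per kb in KO (median 4.799) and 1.93 to 4.21 in WT (median 3.21). Irx3 was above Irx5 in each of the 11 libraries. Irx2 followed with 0.728 to 1.96 CPM per kb in KO and 0.497 to 1.12 in WT, and Irx4 was lowest with 0.390 to 0.837 in KO and 0.178 to 0.479 in WT. Mkx, an Iroquois-related TALE gene known for its role in tendons, had 0.731 to 1.33 CPM per kb in KO and 0.539 to 1.27 in WT. Irx3 and Irx5 were therefore the main Iroquois transcripts among the measured genes, since both lay above Irx2, Irx4 and Mkx in each of the 11 libraries.

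**Figure D2:**
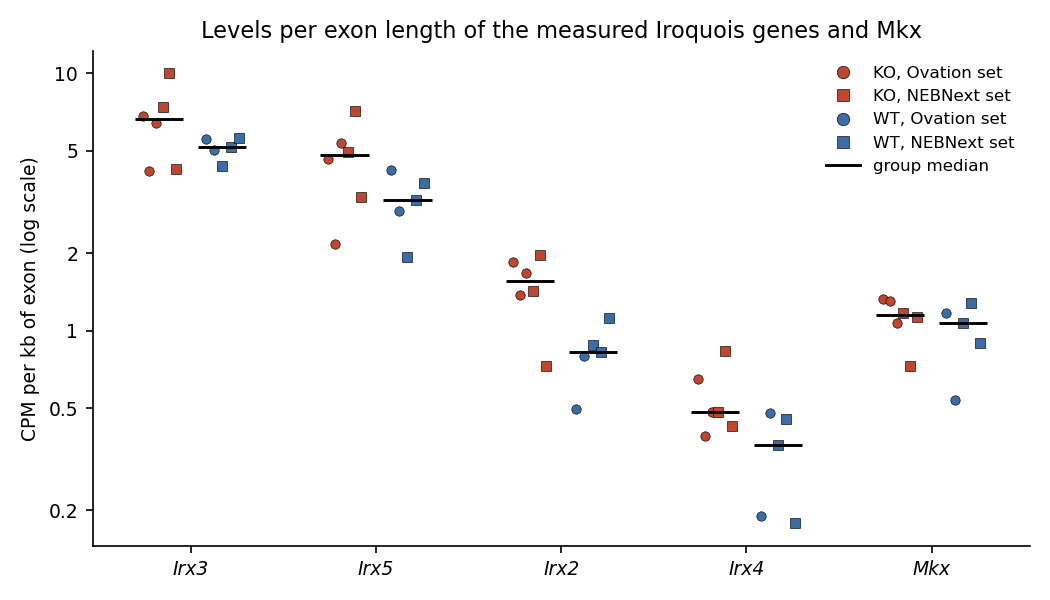
CPM per kb of exon on a log axis for Irx3, Irx5, Irx2, Irx4 and Mkx, with KO libraries (red) left of WT libraries (blue), circles for the Ovation set, squares for the NEBNext set and black lines for group medians. Irx3 and Irx5 occupy the upper range, with KO medians of 6.62 and 4.799 and WT medians of 5.15 and 3.21 CPM per kb.

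The same 11 embryos showed whether Irx3 and Irx5 vary together. Over 11 libraries the log2 levels of Irx3 and Irx5 had a Pearson r of 0.912 (permutation p = 6e-05) and a Spearman rho of 0.891 (permutation p = 0.00057), and this was the only pair of genes tested in this way. Without KO 3 and KO 2, the 2 libraries farthest from the median of Irx3, r was 0.873 (exact p = 0.00281). After the mean of each genotype within each set was subtracted, r was 0.893 (permutation p = 9e-05). That permutation exchanged the 11 centred values freely, although subtracting the means ties them to one another, so its p can be too small. Among the 6 KO libraries r was 0.931 (exact p = 0.00972) with a rho of 0.829 (exact p = 0.0583), and among the 6 libraries of the NEBNext set r was 0.916 (exact p = 0.00833) with a rho of 0.829 (exact p = 0.0583). No correlation is given for the Ovation set alone, which holds 5 libraries. Leaving out single libraries gave r between 0.877 without KO 3 and 0.942 without KO 4. Libraries with more Irx3 thus also had more Irx5, within genotypes as well as across them. The points share the scaling and batch correction of their library, and the part of these in the relation was not tested.

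**Figure D3:**
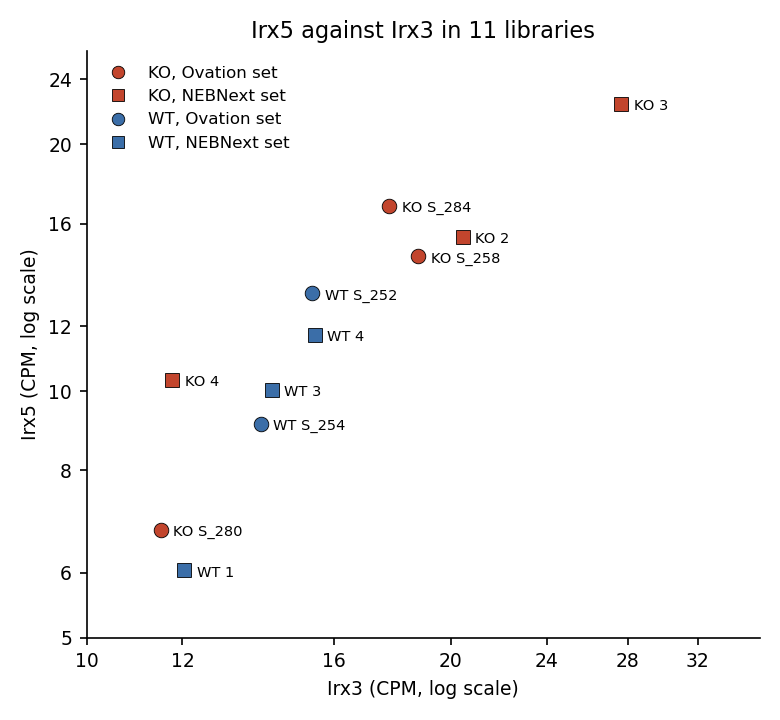
Irx5 against Irx3 in CPM on log axes, with 1 point per library, red for KO, blue for WT, circles for the Ovation set and squares for the NEBNext set. The points rise together from WT 1 and KO S_280 at the lower left to KO 3 at the upper right, with r = 0.912.

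The rest of the family was described next. Irx2, a gene of the IrxA cluster, was at 6.05, 4.497 and 5.52 CPM in KO S_258, S_280 and S_284 and at 4.69, 6.44 and 2.39 CPM in KO 2, 3 and 4, against 1.63 and 2.61 CPM in WT S_252 and S_254 and 2.87, 2.71 and 3.67 CPM in WT 1, 3 and 4. All KO libraries except KO 4 lay above all WT libraries. Its log2 FC was 0.75 with a standard error of 0.25, an unadjusted p of 0.0104 and a limma adjusted p of 0.165, so it did not pass. Without KO 4 its log2 FC was 0.97 and it passed (adjusted p = 0.0264). Irx4, known for its role in heart ventricles, was at 1.017 to 2.18 CPM in KO and 0.465 to 1.25 CPM in WT, with a log2 FC of 0.52 (adjusted p = 0.391). Mkx was at 2.99 to 5.45 CPM in KO and 2.21 to 5.22 CPM in WT, with a log2 FC of 0.19 (adjusted p = 0.776).

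Of the 7 listed Iroquois genes with Mkx, 5 were measured and 0 passed in either direction, 1 of them, Irx2, being higher with an unadjusted p under 0.05, as were 7.31% of all genes. These 5 genes include Irx3 and Irx5. Their median log2 FC was 0.46, which is the value of Irx5 itself, beside a median of 0.00 over all genes tested. All 5 values were above 0, as were 6519 of the 12996 genes tested. KO 3 held the highest level of Irx2, Irx3, Irx4 and Irx5 and the lowest KO level of Mkx. Irx1 and Irx6 were not analysed here.

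The genes around Irx3 and Irx5 on chromosome 8 were taken next, since the members lie in a long interval with few other genes. Fto, which encodes an RNA demethylase and carries enhancers of Irx3 in its introns, ends 130 kb from Irx3. Fto was at 99.1, 84.0 and 82.8 CPM in KO S_258, S_280 and S_284 and at 90.6, 85.4 and 92.1 CPM in KO 2, 3 and 4, against 67.4 and 73.4 CPM in WT S_252 and S_254 and 75.4, 76.9 and 74.0 CPM in WT 1, 3 and 4. The groups did not overlap, as for 3.49% of all genes. Fto was 1.21-fold higher in KO, a log2 FC of 0.28 with a standard error of 0.07, and just passed with a limma adjusted p of 0.0499864. It no longer passed when any 1 of the 11 libraries was left out, with adjusted p from 0.0601 without KO 3 to 0.150 without WT S_252. Fto and Irx3 had the same log2 FC to 2 decimals, with standard errors of 0.07 and 0.20. Across libraries Fto had r of 0.29 to Irx3 and 0.31 to Irx5 after set means were subtracted. With the means of each genotype within each set subtracted, r was -0.06 and -0.11.

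Crnde, a long noncoding RNA, starts 1504 bases from the start of Irx5 and is transcribed in the opposite direction. It was at 9.63, 12.7 and 11.4 CPM in KO S_258, S_280 and S_284 and at 14.6, 16.9 and 7.86 CPM in KO 2, 3 and 4, against 8.57 and 5.92 CPM in WT S_252 and S_254 and 5.205, 6.85 and 9.04 CPM in WT 1, 3 and 4. KO 4 alone of the KO libraries lay within the WT range. The log2 FC of Crnde was 0.73 with a standard error of 0.21 and a limma adjusted p of 0.0927, and without KO 4 it passed at 0.88 (adjusted p = 0.0291). Its level followed those of the members, with r of 0.70 to Irx3 and 0.68 to Irx5 after set means were subtracted, and 0.51 and 0.52 without KO 3.

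Irx3os is transcribed against Irx3 and overlaps it over 1653 bases, of which 124 are exonic in both, 4.49% of the exonic bases of Irx3. It was at 1.12 to 2.88 CPM in KO and 0.806 to 3.27 CPM in WT, with a log2 FC of 0.07 (limma adjusted p = 0.956). Whether strand was used in counting is not given in the sources used here, so reads from these shared exons cannot be told apart. Irx3os was at most 3.27 CPM in any library, well below Irx3.

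The other measured neighbours did not pass. Mmp2, a matrix metalloproteinase, was at 53.5 to 70.8 CPM in KO and 61.7 to 89.3 CPM in WT, with a log2 FC of -0.28 (adjusted p = 0.218 in limma). Aktip, a binding partner of the kinase Akt, was at 18.4 to 20.6 CPM in KO and 13.9 to 17.7 CPM in WT, without overlap (as for 3.49% of all genes), with a log2 FC of 0.24 (adjusted p = 0.268). Rpgrip1l, which encodes a protein of the ciliary transition zone, had a log2 FC of 0.17, Chd9, a chromatin remodeller, 0.16, Rbl2, an Rb-related pocket protein, 0.11, and Lpcat2, a phospholipid acyltransferase, 0.10, with adjusted p of 0.465 or more. Of the 12 listed neighbours, 9 were measured, 1 rose (1.04% of all genes did), 0 fell (1.05% of all genes did), and the median log2 FC was 0.16 beside 0.00 over all genes. Capns2 and Slc6a2 were not analysed here.

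**Figure D4:**
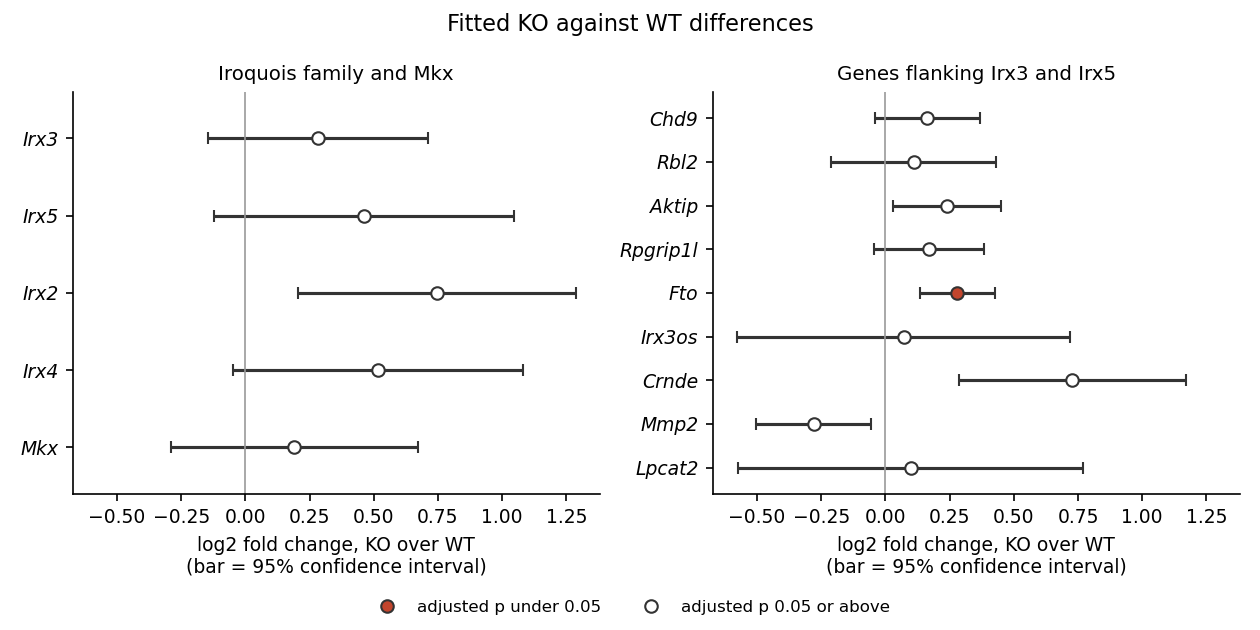
Log2 FC of KO over WT (points) with 95% confidence intervals (bars) for the Iroquois family and Mkx (left) and for the neighbours of Irx3 and Irx5 in chromosomal order (right), filled red where the limma adjusted p was under 0.05. The intervals of Irx3 (-0.14 to 0.71) and Irx5 (-0.12 to 1.05) include 0, and Fto is the only filled point.

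The gene most like Irx3 across the 11 libraries was Chrac1, a histone-fold subunit of a chromatin remodelling complex, with an r of 0.96 after set means were subtracted. Gas1, a Hedgehog co-receptor, followed at 0.93, then Irx5 itself at rank 3 of 12995 genes with 0.92, and Spin1, a histone reader (0.91), Mpp1, a membrane scaffold protein (0.89), and Crispld2, a secreted protein (0.89). For Irx5 the nearest gene of all was Irx3, followed by Spin1, 2810001G20Rik, Jakmip2, Meis1 and As3mt, with r between 0.90 and 0.91. These values are descriptions without a test, since with 11 libraries and 12995 genes high values occur by selection. When the means of each genotype within each set were subtracted, Irx5 was at rank 33 for Irx3, and Irx3 was at rank 30 for Irx5, with r = 0.89. Of the 5 nearest genes other than the partner, only Chrac1 stayed among the 5 nearest to Irx3 with this centring, and none of those of Irx5 did. Without KO 3, Chrac1 and Spin1 stayed for Irx3 and again none for Irx5.

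Gas1 illustrates the pattern, with 145, 133 and 171 CPM in KO S_258, S_280 and S_284 and 174, 245 and 115 CPM in KO 2, 3 and 4, against 144 and 144 CPM in WT S_252 and S_254 and 118, 127 and 134 CPM in WT 1, 3 and 4. As for Irx3, KO 3 was highest and KO 4 and KO S_280 were the lowest KO libraries. Its log2 FC was 0.26 (limma adjusted p = 0.478). Meis1, a gene targeted in these embryos, was at 124, 110 and 153 CPM in KO S_258, S_280 and S_284 and at 140, 158 and 120 CPM in KO 2, 3 and 4, against 150 and 117 CPM in WT S_252 and S_254 and 106, 117 and 134 CPM in WT 1, 3 and 4. Its r was 0.91 with Irx5 and 0.80 with Irx3, and 0.87 and 0.71 without KO 3. The Meis1 transcript was not lower in KO, with a log2 FC of 0.10 (adjusted p = 0.755), so its level does not check the labels here.

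Other TALE genes were compared as the class to which both members belong. Of 11 measured, 3 rose and 1 fell, with a median log2 FC of 0.13 beside 0.00 over all genes. Among all genes tested 1.04% rose and 1.05% fell. Pknox2, a relative of Meis, rose to 34.4 ± 6.37 CPM in KO against 13.7 ± 5.26 CPM in WT, a log2 FC of 1.37 (limma adjusted p = 0.00592), and passed whichever library was left out. Pbx3, a partner of Meis and Hox proteins, rose to 79.9 ± 14.9 CPM in KO against 52.3 ± 6.36 CPM in WT (log2 FC 0.60, adjusted p = 0.0250). Pknox1 fell to 22.3 ± 2.57 CPM in KO against 30.5 ± 2.60 CPM in WT (log2 FC -0.45, adjusted p = 0.0359). Pbx3 no longer passed without KO S_284, KO 2, WT S_254, WT 1 or WT 3, with adjusted p up to 0.0792. Pknox1 passed only without KO S_280 or WT 4 and reached an adjusted p of 0.105 without WT S_254. Across libraries Pbx3 ran with the members (r = 0.75 with Irx3, 0.78 with Irx5), and without KO 3 these values were 0.55 and 0.65.

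Genes of the domains in which Irx3 and Irx5 act were grouped by position. Of 8 anterior limb bud genes 0 rose (1.04% of all genes) and 1 fell (1.05% of all genes), with a median log2 FC of -0.36. Asb4, a ubiquitin ligase adaptor (log2 FC -0.76, limma adjusted p = 0.0909), and Alx1, a homeobox gene (-1.54, adjusted p = 0.103), did not pass with all libraries. Asb4 passed without KO 3 (adjusted p = 0.0259) and Alx1 without KO S_258 (adjusted p = 0.0408). Irx3 and Irx5, with log2 FC above 0, differed in sign from 6 of these 8 genes, and that difference was not tested.

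Of 10 posterior limb bud genes 1 rose (1.04% of all genes) and 0 fell (1.05% of all genes), with a median log2 FC of 0.06. Tbx2, a T-box repressor, rose to 9.21 ± 1.79 CPM in KO against 4.87 ± 0.709 CPM in WT (log2 FC 0.86, limma adjusted p = 0.0156), and did not pass without KO 2 (adjusted p = 0.0558) or WT S_252 (0.0508). Isl1, required for HL initiation, had a log2 FC of 0.66 (adjusted p = 0.327), Osr1 1.00 (adjusted p = 0.422) and Hoxd12 0.53 (adjusted p = 0.627). Across libraries this group ran against the members, with a median r of -0.47 to Irx3 and -0.42 to Irx5 and 2 and 1 of 10 genes above 0. Hoxd11, a 5′ Hoxd gene, was the lowest, with -0.75 to Irx3 and -0.67 to Irx5. Tbx2 was above 0 to both (0.22 and 0.21), and Hand2 to Irx3 alone (0.11). Much of this rested on KO 3, without which the medians were -0.13 and -0.09, with 4 and 4 of 10 genes above 0. Hoxd11 then had -0.41 and -0.42.

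The library highest in Irx3 and Irx5 was singled out after its values were seen. KO 3 had 15.7 CPM of Isl1, where the other KO libraries had 29.8 CPM or more. It had 0.4502 CPM of Osr1, 1.67 CPM of Hoxd12 and 28.5 CPM of Ptch1, the Hedgehog receptor and target, each the lowest KO value. It had 245 CPM of Gas1 and 132 CPM of Cdon, both Hedgehog co-receptors, each the highest of all 11 libraries. Gas1 was named for its likeness to Irx3 in these same libraries, so its level in KO 3 is no separate observation. Boc, another co-receptor of the Hedgehog list, had r of -0.01 to Irx3 and 0.11 to Irx5 after set means were subtracted. KO 4, low in both members, had the highest KO levels of Isl1 (54.6 CPM), Hoxd12 (12.2 CPM) and Ptch1 (71.3 CPM) and the lowest KO levels of Cdon (56.7 CPM) and Gas1 (115 CPM). KO S_280, which had less Irx3 and Irx5 than KO 4, did not have the same profile, with 47.6 CPM of Isl1, 8.25 CPM of Hoxd12, 50.4 CPM of Ptch1, 84.6 CPM of Cdon and 133 CPM of Gas1. KO 3 and KO 4 were at 30 to 31 somites and KO S_280 at 32 to 33 somites by their labels. Which part of the bud and flank each dissection took in is not given in the sources used here, and its part in these values was not tested.

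**Figure D5:**
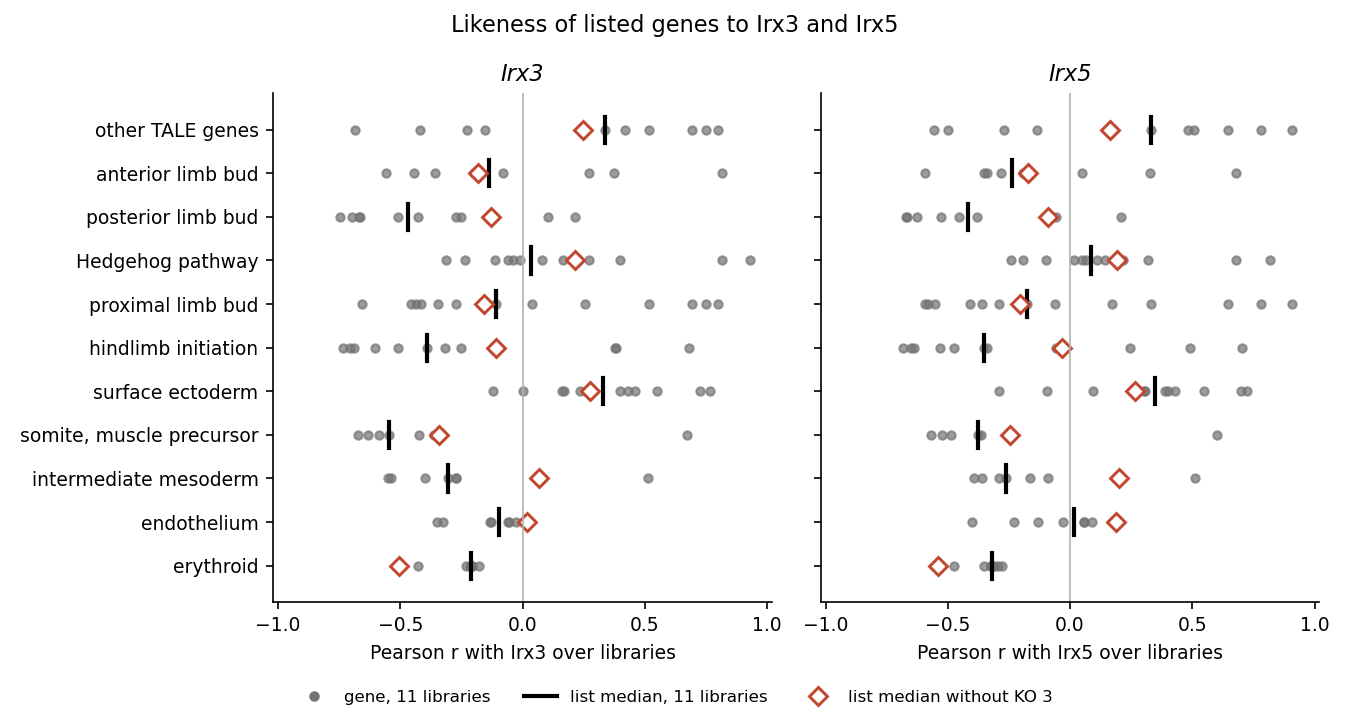
Pearson r with Irx3 (left) and Irx5 (right) of each measured gene in 11 lists after set means were subtracted (grey points, 11 libraries), with list medians (black bars) and list medians without KO 3 (open diamonds). The posterior medians of -0.47 and -0.42 move to -0.13 and -0.09 without KO 3.

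Hedgehog pathway genes were set beside the members because this pathway restrains Irx3 and Irx5 in the mouse limb. Of 12 measured, 0 passed in either direction (3 had an unadjusted p under 0.05, against 14.7% of all genes), and the median log2 FC was 0.17. Shh was not among the genes of the table and was not analysed here. Hhip, a target that binds the ligand, had a log2 FC of 1.27 (limma adjusted p = 0.0763), Gli1, a target and effector, 0.81 (adjusted p = 0.0927), Cdon 0.38 (adjusted p = 0.289) and Ptch1 0.38 (adjusted p = 0.419). Gli1 passed without KO 3 (adjusted p = 0.0168) and without WT 3 (0.0483), Ptch1 and Osr1 without KO 3 (0.0165 and 0.0226), Hhip without WT 3 (0.0154) and Cdon without KO 4 (0.0386). Gli1 and Ptch1 had r of -0.11 and -0.31 to Irx3, and 0.11 and 0.21 without KO 3. With the means of each genotype within each set subtracted, they had -0.61 and -0.58 to Irx3 and -0.44 and -0.43 to Irx5. Of the 12 genes, 7 were above 0 to Irx3 with this centring. The values of Gli1 and Ptch1 thus depended on the centring and on KO 3, and no direction is read from them.

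Of 13 proximal limb bud genes 2 rose, Pbx3 among them, and 2 fell, beside 1.04% and 1.05% of all genes. Pkdcc, a secreted kinase needed for long bone growth, fell to 8.96 ± 1.98 CPM in KO against 19.8 ± 5.04 CPM in WT (log2 FC -1.10, limma adjusted p = 0.00897). Tbx15, a T-box factor of the girdles and proximal limb, fell to 18.9 ± 3.69 CPM in KO against 38.3 ± 13.1 CPM in WT (log2 FC -0.96, adjusted p = 0.0394). Pkdcc passed in every leave-one-out fit, and Tbx15 passed only without KO S_280 or WT 4, with an adjusted p up to 0.126 without WT S_252. The median log2 FC of the list was -0.06.

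Of 11 genes of HL initiation 0 rose (1.04% of all genes) and 1 fell (1.05% of all genes), with a median log2 FC of 0.03. Tcf7, a WNT effector, fell to 51.4 ± 13.02 CPM in KO against 88.3 ± 7.85 CPM in WT (log2 FC -0.81, limma adjusted p = 0.0122). It passed in every leave-one-out fit but not with litter 1 alone in the Ovation set. Fgf10, the mesenchymal signal to the limb ectoderm (log2 FC -0.57, adjusted p = 0.0828), and Lef1, another WNT effector (-0.45, adjusted p = 0.0918), did not pass with all libraries. Both passed without KO 4 (adjusted p = 0.0365 and 0.0116), and Fgf10 also without WT 3 (0.0438). Hoxc10, a posterior Hox gene of the HL level, had a log2 FC of 0.28 (adjusted p = 0.270).

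Some genes are tied to Irx3 or Irx5 in other tissues. Of 6 measured, 2 rose (1.04% of all genes) and 0 fell (1.05% of all genes), with a median log2 FC of -0.04. Cxcl12, a chemokine that Irx5 is known to repress in Xenopus, was at 47.4, 58.4 and 73.9 CPM in KO S_258, S_280 and S_284 and at 57.0, 48.2 and 58.8 CPM in KO 2, 3 and 4, against 30.0 and 30.0 CPM in WT S_252 and S_254 and 27.8, 40.8 and 46.8 CPM in WT 1, 3 and 4. The groups did not overlap, as for 3.49% of all genes, and Cxcl12 rose with a log2 FC of 0.72 (limma adjusted p = 0.0238). Gata3, whose protein is known to bind Irx5, rose to 9.74 ± 1.41 CPM in KO against 4.98 ± 1.60 CPM in WT (log2 FC 0.95, adjusted p = 0.0224). Cxcl12 did not pass without KO 2, WT S_252, WT S_254 or WT 1 (adjusted p up to 0.0885), nor did Gata3 without KO S_284, KO 2, WT S_252 or WT 1 (up to 0.0791). With Irx5, r was 0.41 for Cxcl12 and 0.51 for Gata3. Gja1 and Gja5, connexin genes that Irx3 regulates in the mouse heart, had log2 FC of -0.20 (adjusted p = 0.219) and -0.81 (adjusted p = 0.536).

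Markers of the tissue and of other cell types were read in the same libraries. With all 11 libraries, 1.04% of the genes tested rose, 1.05% fell and 2.09% passed in either direction. The 9 limb mesenchyme markers summed to 812 to 1096 CPM in KO and 715 to 962 CPM in WT, so the labelled tissue was present throughout, and 1 of them fell, Msx1, a distal homeobox gene (log2 FC -0.69, limma adjusted p = 0.00275, passing in every leave-one-out fit). Of the 12 surface ectoderm markers 0 passed, with sums of 201 to 354 CPM in KO and 236 to 338 CPM in WT. Their median r was 0.33 to Irx3 and 0.35 to Irx5, with 11 and 10 of 12 values above 0. Without KO 3 it was 0.28 and 0.27, with 9 and 9 values above 0. With the means of each genotype within each set subtracted, it was 0.48 and 0.51. Of 7 somite and muscle precursor markers tested 0 passed, with sums of 44.3 to 109 CPM in KO and 55.0 to 126 CPM in WT, and their median r was -0.54 to Irx3 and -0.34 without KO 3. Of 7 intermediate mesoderm markers tested 1 rose, Gata3, which is also in the list above, with sums of 25.7 to 63.3 CPM in KO and 28.6 to 40.8 CPM in WT and the lowest sum in KO 3. Their median log2 FC was 0.95, the largest of the lists, with 5 of 7 values above 0. Without KO 3 it was 1.18 and 3 of the markers passed, where fits without a single library called 106 to 340 genes in all. No marker of this list passed without KO S_284, KO 2, WT S_252 or WT 1. Their median r was -0.30 to Irx3 and -0.26 to Irx5, and 0.07 and 0.20 without KO 3.

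Of 8 endothelial markers 0 passed (221.8 to 307 CPM in KO, 203.6 to 283.5 CPM in WT), and of 8 erythroid markers 0 passed (1357 to 13098 CPM in KO, 1787 to 11765 CPM in WT). Over all genes tested 2.09% passed. The erythroid markers ran against the members across libraries, with a median r of -0.21 to Irx3 and -0.32 to Irx5, -0.51 and -0.54 without KO 3, and 0 of 8 values above 0. Of 12 neural markers 3 were in the table, with sums of 2.60 to 5.70 CPM in KO and 3.96 to 6.02 CPM in WT, and 0 of the 2 tested passed. The part of the somite, ectoderm, intermediate mesoderm and erythroid levels in those of Irx3 and Irx5 was not tested.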

How the data were processed

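RNA of 11 libraries was sequenced. The submitters' processing notes name CASAVA 1.8.2, cutadapt 1.3 and RSEM 1.2.3 for Ovation libraries and give no versions for NEBNext libraries, both on GRCm38. The authors scaled estimated counts by TMM, corrected batches with ComBat and deposited CPM on a linear scale. Column sums were 75.5% to 80.6% of the full CPM total. Read depth is unknown, so no counting interval is given, and variance after batch correction can be understated.

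Log2(CPM + 0.5) was modelled on genotype and library set with a mean-variance trend, using limma 3.58.1 under R 4.3.3 (8 residual degrees of freedom). Genes reaching 1 CPM in fewer than 4 libraries were dropped, 724 in all. FC include the pseudocount. Calls had a two-sided Benjamini-Hochberg adjusted p under 0.05. Sets alone left 3 and 4 residual degrees of freedom. Permutation tests of genotype were run in R. Correlations with their permutation tests and the figures used Python 3.11.15 (numpy 2.4.6, scipy 1.17.1, pandas 2.3.3, matplotlib 3.10.9). Lengths and positions came from GENCODE M21, a later annotation than the authors used. The fit was tested on simulated data.

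The members and the 16 gene lists were chosen with earlier results of these data known. Named were both members, measured family and locus genes, up to 4 members of each other list with the smallest p, the 5 genes most like each member, and genes behind counts of 5 or fewer. Marker lists are given by counts and sums. Some listed genes enter the counts and medians but are not reported here by name. Alternatives covered pseudocounts, filters, scaling, variance models, the set term, replicate blocks, litter 1 alone and single libraries.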

Additional observations from a re-analysis of the deposited data

Results flagged for a closer look

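In 104 comparisons of 1 library with the rest of its group, 5 showed a gap larger than Dixon's 95% limit, about what chance gives at 1 in 20, and none concerned Irx3 or Irx5. Aktip was at 20.6 CPM in KO S_280, above the other KO libraries. Isl1 was at 39.7 CPM in WT 4, above the other WT libraries. Cdon was at 59.0 CPM and Spin1 at 196 CPM in WT 1, both below the other WT libraries, while Prrx1, a mesenchymal homeobox gene, was at 569 CPM in WT 1, above them. WT 1 was also the WT library with the least Irx3 and Irx5.

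Gja5 lay above WT in every KO library of the Ovation set and below WT in every KO library of the NEBNext set. The log2 FC in the Ovation set minus that in the NEBNext set was 3.08, with an interaction adjusted p of 0.123 in limma, so the difference did not pass.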

How the results depend on the processing

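Irx3 and Irx5 stayed above 0 and short of the threshold under all 22 alternatives, with log2 FC of 0.13 to 0.43 for Irx3 and 0.28 to 0.64 for Irx5. The unknown depth, the batch correction before deposit and the spread among 6 KO embryos limit these values. The NEBNext title numbers 3 and 4 occur in both genotypes. Deviations from group means had r of 0.20 and -0.04 for same-numbered libraries, against -0.16 and -0.09 for differently numbered ones. With 3 libraries per genotype these values cannot tell whether same-numbered libraries share a litter or batch. With a replicate block the log2 FC was 0.18 for Irx3 and 0.28 for Irx5, the log2 ratio was 0.10, Irx3os had -0.0789 and Crispld2 -0.0323, and 64 genes were changed instead of 272. Litter 1 alone in the Ovation set gave 101 changed genes, and leaving out single libraries gave 106 to 340. Those counts rest on fewer samples or fewer residual degrees of freedom. Pbx3, Pknox1, Tbx2, Tbx15, Gata3 and Cxcl12 did not pass with the block or with litter 1 alone, while Prrx1 came to pass with the block. Without the trend, Pbx3, Pknox1, Tbx15 and Cxcl12 did not pass. The count of other TALE genes called was 1 in each of these settings. The neighbours' count went to 0 with a pseudocount of 0.1, without the trend, with robust eBayes, with the block and with litter 1 alone, and was 0 to 1 with single libraries left out, as was the family's (Irx2, without KO 4). With single libraries left out, the Ovation difference was -0.0291 to 0.312 for Irx3 and -0.141 to 0.496 for Irx5, and the log2 FC was -0.126 to 0.256 for Irx3os, -0.0664 to 0.344 for Lpcat2 and -0.0422 to 0.323 for Mkx. The cause of these reversals was not tested. Of the 5 genes nearest Irx3, 1 stayed with genotype centring and 2 without KO 3, and 0 and 0 of those nearest Irx5, the KO 3 alternative and the correlation with libraries left out being chosen after seeing the data.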
